A study of Mus musculus with 6 samples.

Results

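Transcripts of 10 genes of the tumour necrosis factor (TNF) superfamily were measured in whole lungs of endotoxaemic mice: the ligands Tnf, Fasl, Tnfsf10 and Tnfsf13b, and the receptors Tnfrsf1a, Tnfrsf1b, Fas, Tnfrsf10b, Tnfrsf12a and Ltbr. The 10 were taken by name from 22815 genes with a usable probe, and 14 probes reported them. For each gene the probe with the highest mean signal over the 6 arrays was used. All 10 were among the 16362 genes tested, because each chosen probe was well above background on all 6 arrays, and no probe of theirs was saturated. Male C57BL6 mice, 10 weeks old, were starved for 16 h and given LPS (20 mg/kg, i.p.). At 3 h and again at 24 h the mice were injected with saline (n = 3) or with rhTM, a recombinant human thrombomodulin (n = 3, 30 mg/kg by the methods), and lungs were taken at 30 h, 1 array a mouse. Thrombomodulin is an endothelial receptor of thrombin with anticoagulant and anti-inflammatory actions. Every mouse had been starved and given LPS, so the arrays compare endotoxaemic lungs with and without rhTM and hold no unchallenged lung. The comparison asks whether rhTM altered the transcripts of the TNF system in the injured lung.

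Ligands of this superfamily are made as membrane proteins, act as trimers, and can be cut from the cell surface by proteases such as ADAM17. Their receptors either carry a death domain, through which they can recruit caspases, or bind TRAF adaptors, which pass the signal to NF-kappaB and MAP kinases. In the lung exposed to LPS, macrophages, neutrophils, epithelium and endothelium all send or receive these signals, and TNF is a classical early mediator of endotoxin shock.

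Each signal is given below as a multiple of its own array's 75th percentile of signal, so that values compare 1 gene between mice and not 1 gene with another. Differences are log2 values of rhTM over saline from limma, fitted over all genes tested, with the 95% confidence interval. In RNA of a whole lung, fewer cells of a type and less RNA per cell cannot be told apart.

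By the scanner output none of the 10 transcripts passed an adjusted p of 0.05 in limma. Tnf and Tnfsf10 had lower means in the rhTM group and Tnfrsf10b and Ltbr higher ones, but in every gene the values of the 3 rhTM lungs overlapped those of the 3 saline lungs. The adjusted p in limma was 0.9999 for each of them, and 0 of 10 had an unadjusted p under 0.05. Over all genes tested, 0% were called at the adjusted threshold, 1.86% had an unadjusted p under 0.05, and 5.52% had groups that did not overlap. The spread between mice sets what could be seen: for 8 of the 10 members the interval of the difference lay within 1 log2 unit of 0, as it did for 88.1% of all genes, and the exceptions were Tnfsf10 and Tnfrsf10b.

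The arrays themselves differ in ways that touch these values. The authors' value table holds the same signals as the scanner output, but the signals that the scanner output files under saline replicate 1 stand in the table under rhTM replicate 2, and the reverse. Neither the labels nor the methods settle which is right. The scanner assignment is used here. Values by the authors' table are given where the sign or the separation of the groups differs there, for the members and for named genes of the TNF system and cell markers. The genes that ran closest to Tnf and the interferon-stimulated genes are given by the scanner output only. By the scanner output saline replicate 1 and rhTM replicate 3 lay on one slide and the other 4 arrays on another, so each slide held both groups. By the authors' table all saline arrays and rhTM replicate 1 lay on one slide and rhTM replicates 2 and 3 on the other. With that assignment slide and group can largely not be told apart. rhTM replicate 1 stood apart, with the highest or lowest value of the 6 arrays for 56.4% of all genes tested (17.0 to 35.1% for the others) and for 6 of the 10 members. Between 36243 and 40647 of 56605 probes were well above background per array, and saline replicate 1 had a spike-in slope of 0.826 against 1.07 to 1.09 for the others.

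The labelled tissue was checked against marker genes. All 7 surfactant-cell (AT2), all 8 endothelial, all 3 club cell markers and all 5 alveolar type 1 markers on the array were well above background on every array. Of 4 hepatocyte markers, 2 were above background on all 6 arrays and 1 on none.

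The sequences before 2 of the ligand genes are shown because Tnf and Tnfsf10 had the lowest rhTM means relative to saline among the members. That of Fas is shown as a receptor gene with a match to a motif. Each line gives the 250 bases before the start of the RefSeq transcript (GRCm38.p6), 5′ to 3′ on the strand of the gene. Capitals mark a match to a searched motif, TATAAA in Tnf and TGANTCA, the AP-1 motif, in Fas. Tnf lies on the minus strand at chr17:35202008-35202257, Tnfsf10 on the plus strand at chr3:27316827-27317076, and Fas on the plus strand at chr19:34290409-34290658.
Tnf: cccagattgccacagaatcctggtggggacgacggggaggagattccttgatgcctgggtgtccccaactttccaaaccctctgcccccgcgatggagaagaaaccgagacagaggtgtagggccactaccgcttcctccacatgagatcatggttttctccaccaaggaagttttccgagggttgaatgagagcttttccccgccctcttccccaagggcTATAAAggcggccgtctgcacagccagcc
Tnfsf10: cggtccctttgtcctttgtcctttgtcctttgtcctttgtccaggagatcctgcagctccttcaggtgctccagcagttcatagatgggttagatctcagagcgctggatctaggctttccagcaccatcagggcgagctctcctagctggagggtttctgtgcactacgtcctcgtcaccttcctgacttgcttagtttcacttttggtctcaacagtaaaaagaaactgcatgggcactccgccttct
Fas: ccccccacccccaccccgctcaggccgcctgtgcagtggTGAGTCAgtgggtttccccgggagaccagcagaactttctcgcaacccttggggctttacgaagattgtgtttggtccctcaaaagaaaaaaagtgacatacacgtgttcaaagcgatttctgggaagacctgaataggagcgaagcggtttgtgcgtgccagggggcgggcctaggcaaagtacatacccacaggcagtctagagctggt
RefSeq promoter entries were found for 9 of the 10 members, all but Tnfrsf10b. Both strands were searched for the NF-kappaB consensus, for a pair of GAAA runs 2 bases apart, a motif of interferon regulatory factors, for TGANTCA and for TATAAA. Tnf held TATAAA 29 to 24 bases before the start, a motif found in 12.4% of 32851 promoters. Fas held TGANTCA 211 to 205 bases before the start (6.75% of promoters), and Tnfrsf1b held the paired GAAA motif on the opposite strand 10 to 1 bases before it (2.98%). Of 2 overlapping entries for Tnfsf13b, the second held the paired GAAA motif 16 to 7 bases and TGANTCA 127 to 121 bases before its start. The NF-kappaB consensus, in 7.25% of promoters, matched in no member's window, and Tnfsf10 had a match to none of the motifs, which says only that these letters are not in these 250 bases.

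Tnf encodes the founding cytokine of the family. Its signal was 1.90, 2.16 and 1.54 in the saline lungs and 1.11, 1.83 and 1.21 in rhTM replicates 1, 2 and 3, with means of 1.87 ± 0.314 and 1.38 ± 0.392 (SD, n = 3 each). Replicates 1 and 3 of rhTM lay below every saline lung, and rhTM replicate 2 lay between the saline values. The difference was -0.45 on the log2 scale (SE 0.23, interval -0.998 to 0.0910), or 0.730-fold (0.501 to 1.07). It did not pass the test in limma (adjusted p = 0.9999), and the two-sided exact permutation p was 0.2, where 0.1 is the smallest that 3 against 3 arrays allow. The direction was the same on both slides, at -0.36 on the slide with 4 arrays and -0.65 between the 2 arrays of the other. The second Tnf probe also had the lower rhTM mean, by 0.37 log2 units below the saline mean. The authors' table gave -0.42 (adjusted p = 0.446 in limma). In 24 of 24 alternative analyses the difference was negative, from -0.72 to -0.27. The filters, the methods' t-test and the blocks by the scanner output could not move a gene's difference, and the other analyses reuse the same arrays.

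**Figure D1:**
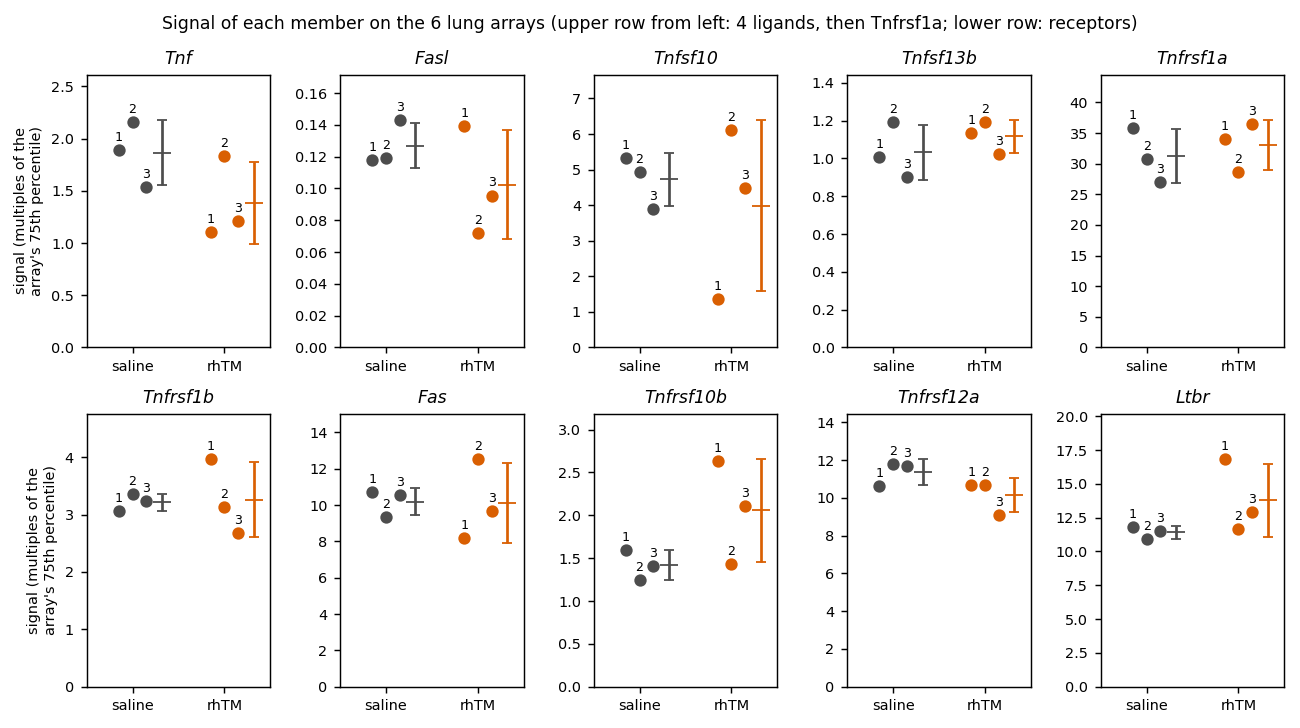
Signal of each member on each of the 6 arrays (vertical axis from 0, in multiples of the array's 75th percentile, 1 panel a gene), in saline lungs (grey) and rhTM lungs (orange) with the replicate number at each point, beside the group mean and SD (bars, n = 3). In every panel the groups overlap, and rhTM replicate 1 lies far below the other 5 arrays for Tnfsf10.

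Tnfsf10 encodes TRAIL, a ligand that can induce apoptosis through death receptors. Its signal was 5.34, 4.94 and 3.89 in the saline lungs and 1.37, 6.11 and 4.48 in the rhTM lungs. rhTM replicate 1 was the lowest of all 6 and rhTM replicate 2 the highest, so that the rhTM mean of 3.98 carried an SD of 2.41, against 4.72 ± 0.747 for saline (n = 3 each). The difference was -0.49 log2 units with the widest interval of the members, -1.74 to 0.77 (adjusted p = 0.9999 in limma, exact permutation p = 0.8). One lung decided its sign: without rhTM replicate 1 the difference was 0.16. The authors' table gave -0.62, and with the slide as a block in that table it was -1.84 (adjusted p = 0.0403 in limma). In that arrangement the second slide held no saline array, so the value compares rhTM replicate 1 alone with the saline lungs, and 2.65% of all genes were called there.

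Fasl encodes the ligand of Fas, a product of cytotoxic T cells and NK cells. Its signal was 0.118, 0.119 and 0.143 in the saline lungs and 0.139, 0.0721 and 0.0956 in the rhTM lungs. Replicates 2 and 3 of rhTM were the lowest values and rhTM replicate 1 lay just under the highest saline lung. The difference was -0.36 (interval -0.94 to 0.23, adjusted p = 0.9999 in limma, exact permutation p = 0.3). It turned to 0.12 (-0.54 to 0.78) by the authors' table, in which rhTM replicate 2, the lowest array, counts as saline. The summed signal of 9 T and NK cell markers was 63.6, 36.2 and 57.6 in saline and 59.3, 28.7 and 66.5 in rhTM lungs, also lowest in rhTM replicate 2, and all 9 were above background on every array. Of these markers 8 of 9 had the lower rhTM mean (median -0.14), Ncr1, a receptor of NK cells, with every rhTM lung below every saline lung (-0.58, and -0.19 with overlap by the authors' table). There, 4 of the 9 had the lower rhTM mean (median 0.053). In the sum, which Gzma and Cd4 dominate, Cd4 read 22.6 and 19.4 on the slide of saline replicate 1 and rhTM replicate 3 and 3.01 to 4.19 on the other slide. Cd4 differed by -0.14 and Gzma by -0.022, and both signs turned by the authors' table (1.67 and 0.50). The part of these markers in the Fasl values was not tested.

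Tnfsf13b encodes BAFF, a survival factor of B cells. Its signal was 1.01, 1.19 and 0.903 in saline and 1.13, 1.19 and 1.02 in rhTM lungs, and saline replicates 1 and 3 lay below every rhTM lung while saline replicate 2 lay beside the highest. The difference was 0.12 (interval -0.23 to 0.46, exact permutation p = 0.4), and -0.048 by the authors' table.

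Tnfrsf1a encodes the death domain receptor through which soluble TNF mainly acts. Its signal was 35.9, 30.8 and 27.0 in saline and 34.1, 28.6 and 36.5 in rhTM lungs, a difference of 0.085 (interval -0.29 to 0.46). A second probe of the gene gave the opposite sign, -0.23. In the authors' table every rhTM lung lay above every saline lung for the first probe, with a difference of 0.30 (0.065 to 0.54, unadjusted p = 0.0201 and adjusted p = 0.317 in limma), and the second probe differed by -0.019. Tnfrsf1b encodes the receptor without a death domain, found mainly on immune and endothelial cells. Its signal was 3.06, 3.35 and 3.23 in saline and 3.96, 3.13 and 2.68 in rhTM lungs. The rhTM lungs held both the highest and the lowest value, and the difference was 0.0016 (interval -0.39 to 0.40, adjusted p = 0.9999 in limma), or -0.021 by the authors' table.

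Tnfrsf10b encodes the death receptor for TRAIL in the mouse. Its signal was 1.60, 1.25 and 1.41 in saline and 2.63, 1.44 and 2.10 in rhTM lungs (means 1.42 ± 0.175 and 2.06 ± 0.597, SD, n = 3 each). Replicates 1 and 3 of rhTM lay above every saline lung, and rhTM replicate 2 lay among them. The difference was 0.50 (SE 0.23, interval -0.061 to 1.06), or 1.41-fold, with an adjusted p of 0.9999 in limma and an exact permutation p of 0.2. It was 0.55 on the slide with 4 arrays and 0.39 between the 2 arrays of the other. Its second probe, above background on 5 of 6 arrays, gave 0.63. In 24 of 24 alternatives the difference was positive, from 0.30, without rhTM replicate 1, to 0.95. The authors' table had every rhTM lung above every saline lung and a difference of 0.60 (0.15 to 1.06, unadjusted p = 0.0174 and adjusted p = 0.313 in limma). The ligand Tnfsf10 was lowest in rhTM replicate 1, the lung in which Tnfrsf10b was highest.

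Fas encodes the death receptor for Fas ligand. Its signal was 10.7, 9.34 and 10.5 in saline and 8.18, 12.5 and 9.69 in rhTM lungs, with the highest and the lowest value both in the rhTM group. The difference was -0.029 (interval -0.45 to 0.40), with 0.16 for a second probe and -0.18 by the authors' table for the first.

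Ltbr encodes the lymphotoxin beta receptor, an activator of the alternative NF-kappaB pathway. Its signal was 11.8, 10.9 and 11.5 in saline and 16.8, 11.6 and 12.9 in rhTM lungs. Replicates 1 and 3 of rhTM lay above all saline lungs, and replicate 2 lay below only saline replicate 1. The difference was 0.26 (interval -0.13 to 0.64, adjusted p = 0.9999 in limma, exact permutation p = 0.2). It was positive in 24 of 24 alternatives, from 0.10, without rhTM replicate 1, to 0.57. In the authors' table every rhTM lung lay above every saline lung (0.27). Tnfrsf12a encodes Fn14, the receptor for TWEAK. Its signal was 10.6, 11.8 and 11.7 in saline and 10.7, 10.7 and 9.09 in rhTM lungs. Saline replicate 1 lay below 2 of the rhTM lungs, and the difference was -0.17 (interval -0.46 to 0.13), negative in 24 of 24 alternatives, from -0.26 to -0.091.

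**Figure D2:**
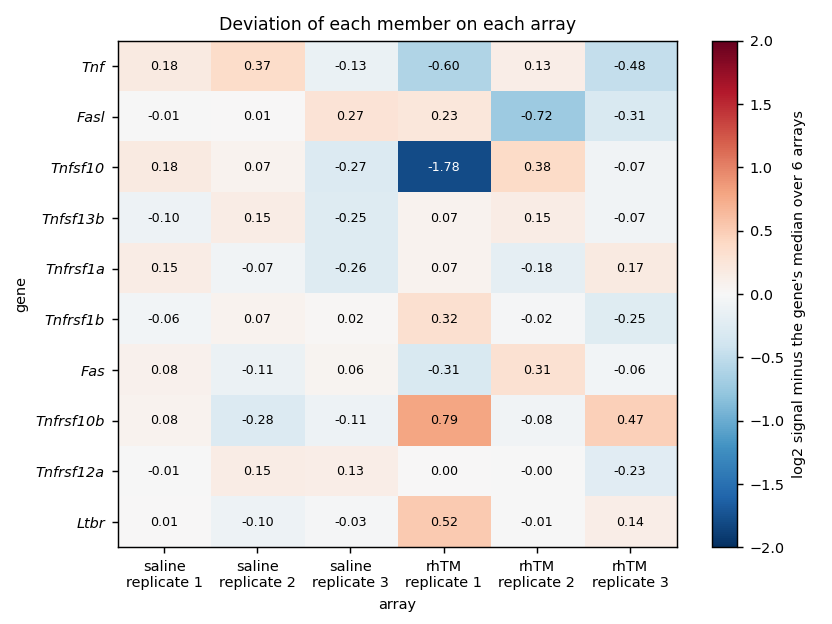
Deviation of each member (rows) on each array (columns), in log2 units from the gene's median over the 6 arrays (red higher, blue lower, value printed in each cell). The column of rhTM replicate 1 holds the largest deviation, -1.78 for Tnfsf10, with 0.79 for Tnfrsf10b, -0.60 for Tnf and 0.52 for Ltbr.

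Taking the 10 together, 5 had the higher and 5 the lower mean in rhTM lungs. The median difference was -0.014, beside 0.0026 over all genes tested, and the median size of the difference without its sign was 0.21 beside 0.11. Of the 4 ligands 3 had the lower rhTM mean, and of the 6 receptors 4 had the higher one, with medians of -0.40 for ligands and 0.043 for receptors. Without rhTM replicate 1 the ligands were 2 higher and 2 lower (median -0.10) and the receptors 4 and 2 (median 0.081). By the authors' table the ligands were 1 higher and 3 lower (median -0.23) and the receptors 3 and 3 (median 0.12). rhTM replicate 1 weighs on these values, since its median distance from the gene's median over the arrays was 0.310 for the members and 0.187 for all genes, against 0.0796 to 0.201 and 0.0793 to 0.134 for the other arrays.

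When saline replicate 1 and rhTM replicate 2 were exchanged, Tnfrsf1a, Tnfrsf10b and Ltbr (3 members) had every rhTM lung above every saline lung and 0 had every one below, where 9.68% of all genes lay above and 12% below. An unadjusted p under 0.05 was found for 2 members, Tnfrsf1a and Tnfrsf10b, where 14% of all genes had one. At the adjusted threshold 0% of genes were called in limma. The table and the scanner output share 4 arrays of the same group, so these are not separate measurements. By the table slide and group can largely not be told apart, here and in the lists below.

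**Figure D3:**
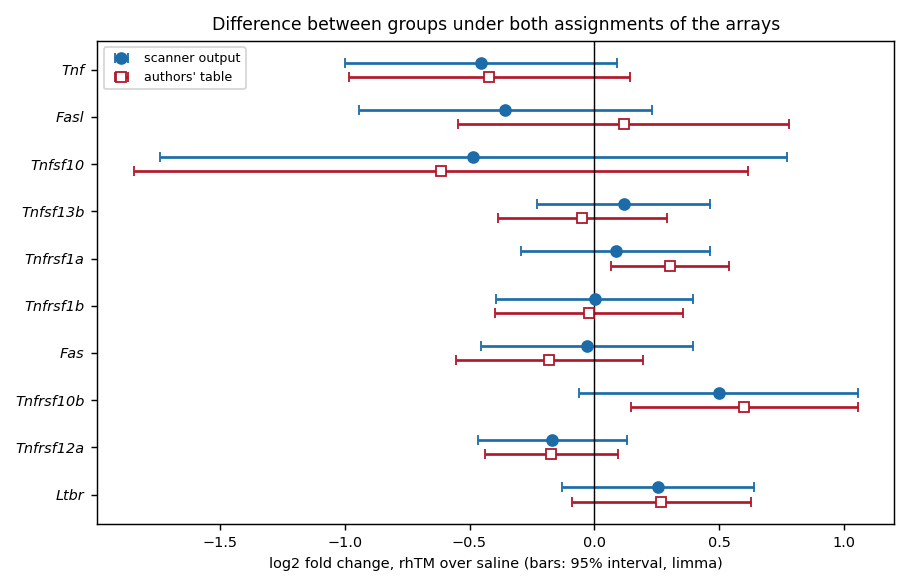
Log2 difference of rhTM over saline for each member (horizontal axis, points, with limma's 95% interval as bars) by the scanner output (filled circles) and by the authors' table (open squares). By the scanner output every interval crosses 0, and by the table those of Tnfrsf1a and Tnfrsf10b do not.

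The other genes of the TNF system were read from lists of ligands, receptors and signalling genes, and in no list did a gene pass the adjusted threshold in limma by either source. Where the authors' table is read below, genes outside the choice by p are named because their groups did not overlap there, beside the 9.68% of all genes above and 12% below, and the median over all genes was -0.025. Of 14 other ligands 7 were tested. Of the 6 well above background on all 6 arrays, 1 had the higher and 5 the lower rhTM mean (median -0.14). The 2 in each direction with the lowest unadjusted p were Tnfsf9, the 4-1BB ligand (0.059), Lta, lymphotoxin alpha (0.010, above background on 2 of the rhTM arrays), Tnfsf12, which encodes TWEAK (-0.21), and Ltb, lymphotoxin beta (-0.28). By the authors' table all 6 had the lower rhTM mean (median -0.20), and the signs of Tnfsf9 (-0.23) and Lta (-0.30) turned. There Tnfsf9, Ltb (-0.51) and Tnfsf14, which encodes LIGHT (-0.26, and -0.073 with overlap by the scanner output), had every rhTM lung below every saline lung.

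Of 22 other receptors 19 were tested. Of the 17 well above background on all 6 arrays, 7 had the higher and 10 the lower rhTM mean (median -0.013), and the authors' table gave 5 and 12 (median -0.089). Tnfrsf18 and Tnfrsf19 differed by -0.018 and -0.17 with overlapping groups, and in the table Tnfrsf18 turned to 0.24 and lay above, and Tnfrsf19 lay below (-0.63), without overlap. Tnfrsf9 encodes 4-1BB, a costimulatory receptor of activated T cells. Its signal was 1.35, 1.45 and 1.21 in saline and 2.88, 1.49 and 2.10 in rhTM lungs. Every rhTM lung lay above every saline lung, rhTM replicate 2 by a small margin, and the difference was 0.64 (interval 0.065 to 1.22, unadjusted p = 0.0340 and adjusted p = 0.9999 in limma). It was 0.64 on each slide, and 0.55 with overlapping groups by the authors' table. Without rhTM replicate 1 it was 0.41, and over the alternatives it ran from 0.29 to 1.06. Tnfrsf9, Tnfrsf10b and Ltbr shared their order in the rhTM lungs, with replicate 1 highest and replicate 2 lowest. rhTM replicate 1 was the highest or lowest array for 56.4% of all genes tested, so the order is not read as a trait of these receptors. Eda2r, a receptor for ectodysplasin, was well above background on all 3 saline arrays and not well above background on any rhTM array. It was tested only because the saline arrays passed the filter, so no direction is read from it, and with the arrays of the authors' table it was not tested. Tnfrsf13c, the BAFF receptor (0.28, and -0.21 by the authors' table), and Ngfr, the low-affinity neurotrophin receptor (-0.34), had groups that overlapped. Of 5 B cell markers 4 had the higher rhTM mean (median 0.078), and all 5 had the lower one by the authors' table (median -0.35). Their part in the Tnfrsf13c values was not tested.

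All 23 genes of adaptors and survival signalling were tested, 12 with the higher and 11 with the lower rhTM mean (median 0.0010). The authors' table turned this to 6 higher and 17 lower (median -0.15). Groups that overlapped by the scanner output separated there, with the rhTM lungs lower, for Birc2 (0.033 by the scanner output and -0.10 in the table), Rbck1 (-0.25 and -0.57), Traf1 (-0.29 and -0.40), Traf5 (-0.13 and -0.46) and Traf6 (-0.048 and -0.32). Those of Sharpin separated with the rhTM lungs higher (0.096 and 0.12). Tab3, an adaptor of the kinase TAK1 (0.31), and Chuk, which encodes IKK alpha (0.25), had every rhTM lung above every saline lung, but not by the authors' table (0.13 and 0.021). Traf1 and Traf2, adaptors that bind the receptors' tails, differed by -0.29 and -0.16 with overlapping groups by the scanner output. Of 19 genes of death signalling, all tested, 7 had the higher and 12 the lower rhTM mean (median -0.038), and the authors' table gave 6 and 13 (median -0.10). Faim2, an inhibitor of Fas-induced death (0.16), Cycs, cytochrome c (0.085), Apaf1, the core of the apoptosome (-0.22), and Dffa, the inhibitor of a DNase activated in apoptosis (-0.30), had the smallest unadjusted p in their direction, and in each the groups overlapped. In the table every rhTM lung lay above every saline lung for Faim2 (0.24) and Diablo (0.13, and 0.012 by the scanner output). Every one lay below for Fadd (-0.30, and -0.19 by the scanner output) and Cflar (-0.10 and -0.0018). Outside that choice, and picked after its values were seen, Mlkl, the executor of necroptosis, had every rhTM lung below every saline lung (-0.12), but not by the authors' table (-0.083). The 5 shedding genes had 2 higher and 3 lower rhTM means by either source (medians -0.0075 and -0.021 in the table). Timp3, an inhibitor of ADAM17, had every rhTM lung above every saline lung (0.18), but not by the authors' table (0.16). Adam17 itself differed by -0.044 with overlapping groups, and by the authors' table by -0.29 with every rhTM lung below every saline lung (unadjusted p = 0.0350 and adjusted p = 0.337 in limma), as did Rhbdf1 there (-0.21, and -0.0075 with overlap by the scanner output). Adam10 and Rhbdf2, another sheddase and a partner of ADAM17, differed by 0.13 and -0.056, and by -0.021 and 0.23 in the authors' table.

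The 22 response genes of TNF were all tested, 9 with the higher and 13 with the lower rhTM mean (median -0.038), and the authors' table gave 11 and 11 (median -0.0052). Cxcl2, a neutrophil chemoattractant, read 0.706, 0.609 and 0.684 in saline and 2.29, 0.725 and 0.953 in rhTM lungs. Every rhTM lung lay above every saline lung, and the difference of 0.81 had an interval of -0.15 to 1.76 because rhTM replicate 1 was far above the other 2. Without that lung it was 0.32, and by the authors' table the groups overlapped (0.78). Icam1, an adhesion molecule for leukocytes, read 7.37, 9.07 and 5.24 in saline and 3.75, 6.66 and 4.60 in rhTM lungs, and its difference was -0.54 (interval -1.20 to 0.12). For Icam1 as for Tnf, saline replicate 2 was the highest lung and rhTM replicate 1 the lowest. Tnfaip6, a hyaluronan-binding protein of inflamed tissue, differed by 0.56 (interval -0.50 to 1.61) with overlapping groups. Its difference by the authors' table was 1.18 with every rhTM lung above every saline lung (adjusted p = 0.313 in limma). By the scanner output the groups overlapped for Il6 (0.45, interval -0.92 to 1.82), Ccl20 (0.078, -0.99 to 1.15), Tnfaip8 (-0.023) and Vcam1 (-0.36). In the table every rhTM lung lay above every saline lung for Il6 (1.21), Ccl20 (0.89) and Tnfaip8 (0.28), with adjusted p from 0.313 to 0.347 in limma, and below for Vcam1 (-0.73). Tnip3, an inhibitor of NF-kappaB signalling, had every rhTM lung below every saline lung, by a difference of -0.17 (interval -0.49 to 0.14), and the groups overlapped by the authors' table (-0.17).

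**Figure D4:**
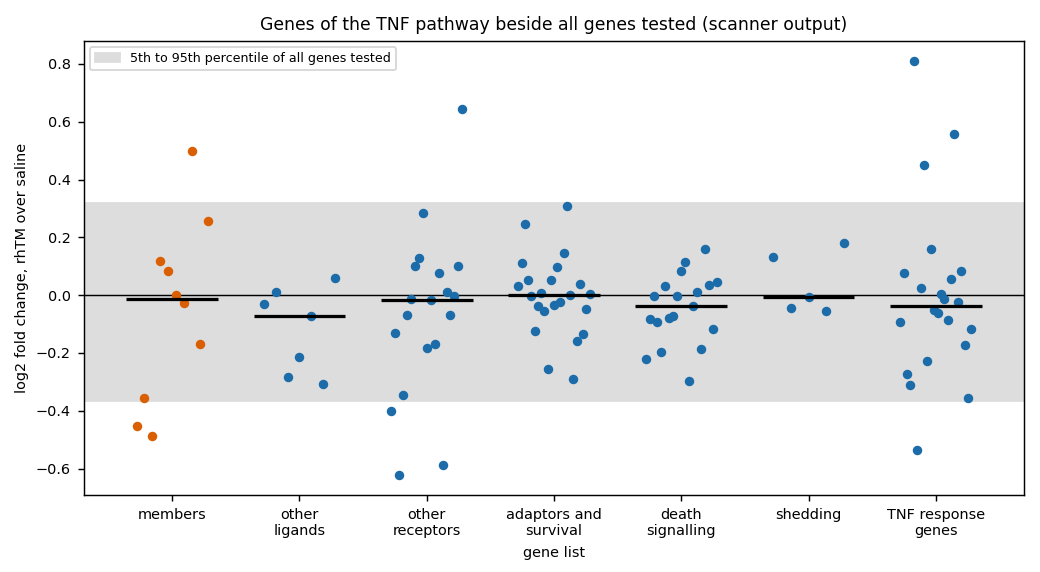
Log2 difference of rhTM over saline by the scanner output (vertical axis) for each tested gene of the 10 members (orange) and of the 6 lists of other genes (blue), with the median of each list as a black line. The grey band is the 5th to 95th percentile of all genes tested, -0.37 to 0.32. Tnf and Tnfsf10 lie below the band and Tnfrsf10b above it, and Cxcl2 is the highest point of the lists.

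Cells that make or bear these proteins were followed by their markers. The summed signal of 7 monocyte and macrophage markers, all above background on every array, was 401 to 436 in saline and 359 to 400 in rhTM lungs, without overlap, and 7 of 7 had the lower rhTM mean (median difference -0.19, beside 0.0026 over all genes). The lowest saline sum, 401, lay just above the highest rhTM sum, 400. Ly6c2, a marker of inflammatory monocytes, made up most of the sum, with 295 to 312 in saline and 263 to 287 in rhTM lungs. Ly6c2 (-0.12) and Ccr2 (-0.19) were the 2 of the 7 whose groups did not overlap, beside 5.52% of all genes. Both overlapped by the authors' table (-0.080 each). In the table the rhTM mean was lower for 6 of the 7 (median -0.11). In this sum, as in Tnf, rhTM replicate 1 was lowest and saline replicate 2 highest. The sums overlapped when the arrays were assigned as in the authors' table. Several endothelial markers had the same highest and lowest arrays by the scanner output. Of the 8 endothelial markers 5 had the lower rhTM mean by either source (medians -0.15 and -0.16 in the table). The 7 alveolar macrophage markers summed to 296 to 312 in saline and 285 to 341 in rhTM lungs, with 4 higher and 3 lower rhTM means (median 0.029), and all 7 were lower in the table (median -0.17). The sum of 8 neutrophil markers on the array was 831 to 985 in saline and 835 to 1100 in rhTM lungs, highest in rhTM replicate 1, where Cxcl2 was highest too. Of the 8, 6 had the higher rhTM mean (median 0.13), and 7 in the table (median 0.22). Without rhTM replicate 1 they were 3 higher and 5 lower (median -0.038) by the scanner output. The part of these cells in the values of Tnf and the other members was not tested.

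The genes whose signal over the 6 arrays ran closest to that of Tnf were Cobl (Pearson r = 0.995, Spearman rho = 0.943), Xrcc2 (r = 0.994, rho = 1), Loxl4 (r = 0.994, rho = 1), Gpr176 (r = 0.993, rho = 1) and Trnp1 (r = 0.988, rho = 0.943). Over 6 arrays 117 of 16361 genes reached r of at least 0.95 with Tnf, and the points share the arrays and their scaling, so these are descriptions only.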

How the data were processed

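Lungs of 3 saline and 3 rhTM mice were hybridised singly to Agilent 1-colour mouse arrays. The authors deposited processed intensity per spot, background-corrected by Feature Extraction (10.7.3.1 by the file headers), and a value table of the same intensity values without further scaling, equal to the scanner output within 0.1% for over 99.9% of probes, apart from the exchange of saline replicate 1 with rhTM replicate 2. The labels and the methods differ on the RNA kit and on naming the control saline or PBS. No per-array depth applies, and the number of arrays limits the precision.

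Log2 intensity minus each array's 75th percentile was tested with limma 3.58.1 (R 4.3.3; lmFit, eBayes, Benjamini-Hochberg over all genes, threshold 0.05). Of 56605 probes, 398 without an unflagged spot on some array (outlier flags) were dropped, and 32994 matched 22911 RefSeq genes (GRCm38.p6 table) by accession. The probe with the highest mean signal stood for a gene, and genes well above background on all 3 arrays of a group were tested. The members and lists were chosen with earlier results of these data known. Named genes of a list were the 2 with the smallest p in each direction, and 2 genes of the death signalling list are not reported here. The fit was checked on simulated data. Replicate numbers were not taken as pairs, except as a block in an alternative. Alternatives were background correction, scaling, filters, probe averaging, slide or replicate block, the authors' table, the methods' t-test and leaving arrays out. The methods' t-test, at a fold of 2 and p of 0.01, passed 1 gene with the scanner values and 14 with those of the table, 0 of them members, and 0 genes after Benjamini-Hochberg adjustment.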

Additional observations from a re-analysis of the deposited data

How the results depend on the processing

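The comparison is limited by 3 lungs a group, by 1 rhTM lung that stood apart and by the unsettled assignment of 2 arrays. In 24 alternatives the differences of Tnf, Tnfrsf10b, Tnfrsf12a and Ltbr kept their sign, and each of the other 6 members turned in at least 1. The filters, the methods' t-test and the blocks by the scanner output leave a gene's difference as it is, so part of the 24 could not turn a sign. The number of members past the adjusted threshold in limma stayed at 0 in all alternatives but 1, a fit of the authors' table that takes the slide as a block, with 1 member (Tnfsf10), 3 genes of the other lists (Cxcl2, Il6 and Vcam1), 432 of all genes, 3 members without overlap and a median of 0.15. There the test compares rhTM replicate 1 alone with saline. Among all other members the lowest adjusted p in limma over the alternatives was 0.0554, for Tnfrsf10b. In that fit Cxcl2 differed by 1.77, Il6 by 2.05 and Vcam1 by -1.40 (adjusted p in limma 0.0337 to 0.0493).

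The count of members without overlap, 0 by the scanner output, was 1 with the percentile taken over probes detected on all arrays, 3 by the authors' table and 5 without both exchanged arrays, where 1 gene of all was called and the members' median was -0.086. Over all genes the groups did not overlap for 5.52% by the scanner output, and in these fits for 5.6%, 21.7% and 41.5%. The cause was not tested. The replicate numbers were not taken as pairs. In deviations from the group means, same-numbered arrays had r of -0.30, 0.44 and -0.45. The highest r, 0.64, was between saline replicate 1 and rhTM replicate 3, which shared a slide. With 3 arrays a group these r cannot show whether pairs exist. The fit with a replicate block called 0 members and 0 genes and changed no call.

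Leaving out 1 array in turn, by either source, gave 0 to 591 genes called, 0 to 5 members without overlap, 0 to 1 genes of the other lists called and medians of the members from -0.088 to 0.081. The 591 came from the authors' table without rhTM replicate 1, as did the called gene of the lists, Tnfaip6. In that fit the saline arrays lay on one slide and the rhTM arrays on the other, so group and slide cannot be told apart. Over all genes 8.96 to 46.1% had groups that did not overlap in these fits of 2 against 3 arrays, against which the counts of members are to be read. Without saline replicate 1 or rhTM replicate 1, the scanner output gave 3 and 2 genes. Over these fits the differences ran from -0.015 to 0.35 for Tnfrsf1a, -0.18 to 0.13 for Tnfrsf1b, -0.28 to 0.11 for Fas, -0.61 to 0.33 for Fasl, -0.99 to 0.16 for Tnfsf10, -0.18 to 0.22 for Tnfsf13b, -0.29 to 0.16 for Tnfsf9, -0.52 to 0.18 for Lta, -0.55 to 0.63 for Tnfrsf13c, -0.094 to 0.32 for Chuk, -0.29 to 0.031 for Apaf1, -0.088 to 0.20 for Adam10, -0.21 to 0.41 for Rhbdf2 and -0.35 to 0.058 for Adam17.

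For the members and the genes chosen by p, signs turned as follows, in log2 units, and the causes were not tested. By the authors' table the values were -0.021 for Tnfrsf1b, 0.12 for Fasl, -0.048 for Tnfsf13b, -0.23 for Tnfsf9, -0.30 for Lta, -0.21 for Tnfrsf13c, -0.021 for Adam10 and 0.23 for Rhbdf2. With the slide as a block in that table they were 0.38 for Fasl, -0.10 for Tnfsf9, -0.30 for Lta and -0.67 for Tnfrsf13c. With the mean over a gene's probes they were -0.072 for Tnfrsf1a, 0.067 for Fas, -0.17 for Faim2, 0.11 for Apaf1 and -0.0033 for Adam10. For Eda2r, from which no direction is read, the fitted value was -0.62 with the brightest probe and 0.31 with that mean. Tnfrsf1b was -0.0037 with normexp, -0.021 with quantile normalization and -0.022 with the percentile over detected probes, where Lta was -0.013. Without both exchanged arrays the values were -0.015 for Tnfrsf1b, -0.21 for Lta, 0.13 for Rhbdf2 and -0.13 for Tnfsf9.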

Other observations

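Tnfsf10 was lowest in rhTM replicate 1. Tnfsf10 is also known as a gene that interferons induce, and 11 tested interferon-stimulated genes were read on the same arrays, a list chosen after the values of the members were seen. Among them were Ifit1, Isg15 and Irf7, and rhTM replicate 1 was the lowest array for 3 of the 11 (Oasl2, Cxcl10 and Bst2). The median of the 11, each centred on its own mean over the 6 arrays, was 0.13 log2 units in rhTM replicate 1, the highest of the arrays, and ran from -0.29 in saline replicate 3 to 0.090 in saline replicate 1 on the others. The part of interferon in the Tnfsf10 values was not tested.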
